A study of Mus musculus with 14 samples.

Results

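The genes described here encode the nuclear pore complex and the nuclear lamina of mouse oocytes. They are a list of 34 genes drawn up by known function, namely 28 nucleoporins, 3 lamins and 3 proteins that tie the inner nuclear membrane to chromatin. All 34 were present among the 16417 genes listed at both stages, and all 34 passed the filter on low counts in each fit. RNA was measured in 14 libraries made with SMART-Seq2, which primes cDNA synthesis at the poly(A) tail and amplifies it. The knockout oocytes, labelled CKO, came from mice with floxed Clpx alleles and the Zp3-Cre transgene (Clpx fl/fl; Zp3-Cre), whose zona pellucida promoter is active in growing oocytes. The oocytes they were set against, labelled WT, carried the same floxed alleles without Cre (Clpx fl/fl) and so are not free of engineered alleles. The labels of the ovulated WT libraries read Clpx fl/f, which was taken to mean the same. There were 3 ovulated CKO, 3 ovulated WT, 4 germinal vesicle (GV) CKO and 4 GV WT libraries. The labels give neither the age of the mice nor the number of oocytes, animals or batches behind a library, so p-values measure the spread between these samples, which may be technical.

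CLPX is the unfoldase of a protease in the mitochondrial matrix. Its mRNA, the deleted target, had 0.465, 0.575 and 0.269 CPM (counts in a library scaled to 1e+06) in the ovulated CKO libraries, against 19.1, 18.5 and 17.0 in ovulated WT. In GV oocytes it had 0.676, 0.940, 1.36 and 1.44 CPM in CKO, against 58.1, 39.6, 39.97 and 39.6 in WT. CKO and WT libraries did not overlap at either stage. Total counts per library lay between 25086506 and 28471453. All 10 markers of the oocyte itself, such as Zp3 and Gdf9, were detected, and summed to 12620 to 14250 CPM in ovulated CKO, 11160 to 17080 in ovulated WT, 27050 to 56750 in GV CKO and 29570 to 46020 in GV WT. Between stages 8 of these 10 fell in CKO and 7 in WT. Of 11 granulosa and cumulus cell markers 7 were listed at both stages, with sums of 46.46 to 80.89 CPM in ovulated CKO, 43.75 to 106.2 in ovulated WT, 33.74 to 52.42 in GV CKO and 38.68 to 50.67 in GV WT. Of 8 markers of other ovarian cells 5 were listed, with sums of 55.55 to 76.88, 45.26 to 109.0, 20.16 to 40.33 and 30.49 to 44.63 CPM in the same groups. The highest of these sums were in ovulated WT replicate 1 and were mostly 1 gene each, with 105.1 CPM of Cyp19a1 and 99.97 of Pecam1. The granulosa markers Fshr and Inha were low throughout. They had at most 0.169 and 1.22 CPM in any ovulated library, against up to 1.19 and 2.30 in GV libraries. Inhba and Ptgs2 went the other way, with up to 3.38 and 2.40 CPM in ovulated libraries, against up to 1.83 and 0.478 in GV libraries. Has2 and Cd44 were also highest in an ovulated library, at 0.438 and 0.270 CPM. Of 6 tested granulosa and cumulus markers 2 rose and 0 fell between stages in WT, and 1 rose and 1 fell in CKO. The part of these marker levels in the stage differences was not tested. Each library pools RNA, so fewer cells with a transcript and less transcript per cell cannot be told apart.

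The nuclear pore complex is the gate between nucleus and cytoplasm. Its Y complexes and inner ring form the scaffold, membrane nucleoporins anchor it, FG-repeat proteins fill the channel, and the cytoplasmic filaments and the nuclear basket flank it. The lamina is a mesh of lamin filaments under the inner nuclear membrane that holds pores and chromatin in place. A GV oocyte has an intact nuclear envelope in meiotic prophase. By ovulation the envelope has broken down and the pores have been dismantled, and new nuclei form around the parental genomes only after fertilisation. Full-grown oocytes make little new RNA, so mRNAs present at ovulation are largely stored ones whose poly(A) tails are lengthened or shortened.

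The median level of the 34 mRNAs was above that of all listed genes. The median over the members was 36.93 FPKM (fragments per kilobase of transcript at a common library size, the authors' length-scaled values) in ovulated CKO, 31.04 in ovulated WT, 14.85 in GV CKO and 15.72 in GV WT. The corresponding medians over all 16417 genes were 1.877, 1.547, 1.448 and 1.657 FPKM. Those genes include ones below the filter on low counts, which all members passed. A group mean of at least 10 FPKM was reached by 24, 24, 19 and 20 of the 34 members in the same groups. FPKM values were scaled by the authors separately for each stage, so levels are best read within a stage. Banf1, encoding the small chromatin-bridging protein BAF, had the highest mean over the 14 libraries. It stood at 243 ± 71.2 FPKM in ovulated CKO, 171 ± 82.8 in ovulated WT (SD, n = 3 each), 331 ± 72.1 in GV CKO and 284 ± 33.1 in GV WT (SD, n = 4 each). Nup35 of the inner ring and Nup37 of the Y complex followed, and in ovulated oocytes both were above Banf1 by their group means. At the other end Lmnb2, encoding lamin B2, had 0.65 ± 0.347 FPKM in ovulated CKO, 0.617 ± 0.430 in ovulated WT, 0.263 ± 0.105 in GV CKO and 0.353 ± 0.205 in GV WT. Nup210, a transmembrane nucleoporin, was as low, with group means between 0.26 and 0.913 FPKM. Lmnb2 rested on 10 to 81 reads per library and Lmnb1 on 15 to 397, so their fold changes carry more counting error than those of the abundant members.

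**Figure D1:**
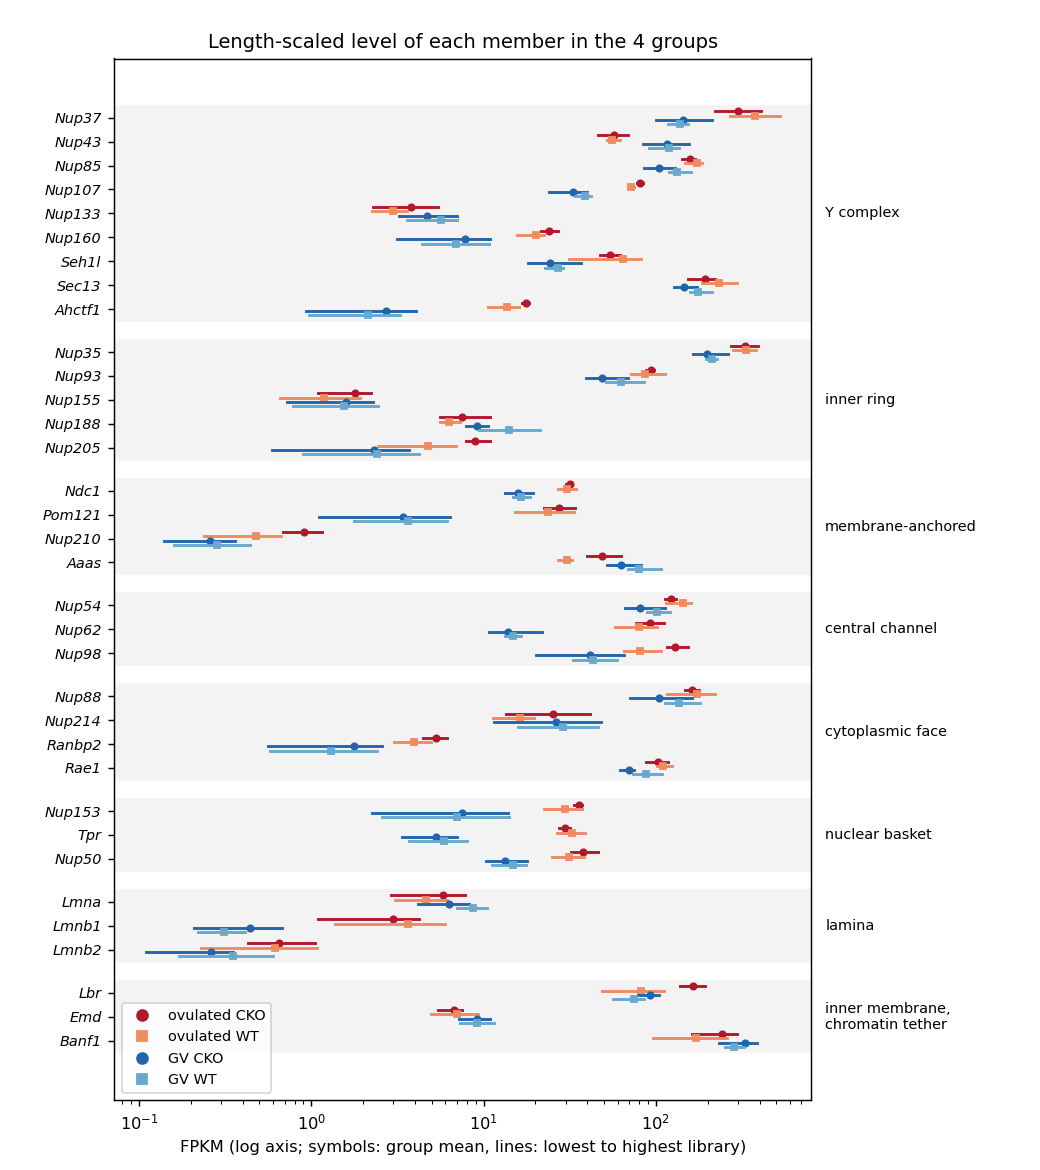
Level of each of the 34 members in FPKM (log axis), with symbols for the group mean and lines from the lowest to the highest library, for ovulated CKO, ovulated WT, GV CKO and GV WT oocytes. Scaffold genes such as Nup35 and Nup37 lie above 100 FPKM in each group mean, while Lmnb2 and Nup210 lie below 1.

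Subunits of the same complex thus had transcripts of very different abundance. Within the Y complex GV WT means ran from 2.15 FPKM for Ahctf1 to 175.5 FPKM for Sec13. Sec13 also serves in the coat of vesicles that leave the endoplasmic reticulum. Within the inner ring they ran from 1.55 FPKM for Nup155 to 213 for Nup35. The A-type lamin gene Lmna, at 8.75 ± 1.74 FPKM in GV WT (SD, n = 4), was above both B-type lamin genes there, with Lmnb1 at 0.31 ± 0.0804. In ovulated WT oocytes Lmna had 4.67 ± 1.54 FPKM and Lmnb1 3.66 ± 2.32 (SD, n = 3), which overlap.

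The 3′ ends of several members carry letters known for the control of stored mRNA. The cytoplasmic polyadenylation element is bound by CPEB proteins in maturing oocytes. It was searched on the transcript strand as TTTTAT or TTTTAAT in up to the last 100 bases of the GENCODE transcript. The polyadenylation hexamer was searched as AATAAA or ATTAAA in up to the last 40 bases. Neither search reached into the coding sequence, so fewer bases were searched in Nup43 (87 for the element), Aaas (32) and Tpr (31). The windows of 30 bases printed here (mm10) belong to members that differed between stages in WT oocytes, and were picked to show 3′ ends with the element and 3′ ends with the hexamer alone. Capitals mark the matched letters, and each window is written 5′ to 3′ on the transcript's strand. The first 4 hold the element, in Nup62, Ranbp2 and Nup37, which rose, and Nup43, which fell.
Nup62 chr7:44830722-44830751 plus strand: TTTTATttctctgcactctattgtagcctt
Ranbp2 chr10:58494294-58494323 plus strand: TTTTAATtcctgttaagatatctggacttc
Nup37 chr10:88178312-88178341 plus strand: TTTTATatcaaacatactgtaaatctagaa
Nup43 chr10:7678823-7678852 plus strand: TTTTATcaccagaaagtggcatttgtaagg
The other 4 hold a hexamer and no element in the span searched, in Ahctf1 and Pom121, which rose, and Aaas and Nup188, which fell.
Ahctf1 chr1:179744894-179744923 minus strand: tagcacAATAAAaaaaactgacaagagaaa
Pom121 chr5:135376141-135376170 minus strand: cATTAAAAATAAAactgtgatctgtcatag
Aaas chr15:102338252-102338281 minus strand: AATAAAgtttttcttgtttccactcattta
Nup188 chr2:30344237-30344266 plus strand: acaaatATTAAAagtgctgtttatagagcc

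The element was found in 9 of 34 members (26.5%), namely Nup62, Ranbp2, Nup37, Nup43, Nup35, Nup54, Nup98, Rae1 and Lbr. Among 12448 tested genes with an annotated 3′ end it was found in 2435 (19.6%). Over all genes it was found in 29.2% of those that rose between GV and ovulated WT oocytes and in 10.9% of those that fell. Among the members it was in 3 of the 12 that rose in WT, 1 of the 7 that fell and 5 of the 15 that did not pass. In CKO it was in 3 of the 15 that rose, 1 of the 7 that fell and 5 of the 12 that did not pass. In neither genotype was the members' share highest among the rises. Of the 5 members with the largest increase in WT oocytes, Nup62 alone held it, although only 31 bases could be searched in Tpr. A hexamer was found in 28 of 34 members (82.4%) and in 77.1% of the tested genes. A match describes letters at the annotated end, which may not be the end that oocytes use.

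The comparison of ovulated with GV oocytes asked how pore and lamina transcripts stood after the envelope had been taken apart. In WT oocytes 19 of the 34 members passed the test, with 12 higher and 7 lower in ovulated than in GV oocytes. The nuclear basket rose as a whole, with all 3 members higher, whereas the chromatin tethers Emd and Banf1 fell. The B-type lamin mRNA Lmnb1 rose and the A-type lamin mRNA Lmna fell. In CKO oocytes 22 of 34 passed, with 15 higher and 7 lower, and the same 7 mRNAs were lower. The test was edgeR's quasi-likelihood test on all 14 libraries, with Benjamini-Hochberg adjustment over 13158 genes and a threshold of 0.05.

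Both directions together, the members passed about as often as other genes, with more rises and fewer falls. In CKO oocytes 64.7% of the members passed, 44.1% higher and 20.6% lower, against 55.7% of all genes tested, 25.8% higher and 29.9% lower. In WT oocytes 55.9% of the members passed, 35.3% higher and 20.6% lower, against 63.7% of all genes, 29.7% higher and 34% lower. These are counts beside each other, and the difference was not tested. The members' median log2 fold change was 0.45 in CKO and 0.39 in WT, while that of all genes was −0.14 in CKO and −0.08 in WT. CPM ranges of the 2 stages did not overlap for 23 members in CKO (67.6%) and 19 in WT (55.9%), where 58.6% and 62.3% of all tested genes did not overlap. The split between higher and lower depends on the scaling. Scaling to total counts moved the median of all genes to 0.45 in CKO and 0.26 in WT, and gave 21 members higher and 1 lower in CKO and 15 higher and 4 lower in WT. The 6 falls lost in CKO under total counts were also lost on both FPKM scales. Fold changes given here are therefore relative to the bulk of mRNA in each library, and the amount of mRNA per oocyte and its tail length cannot be told apart from these data.

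**Figure D2:**
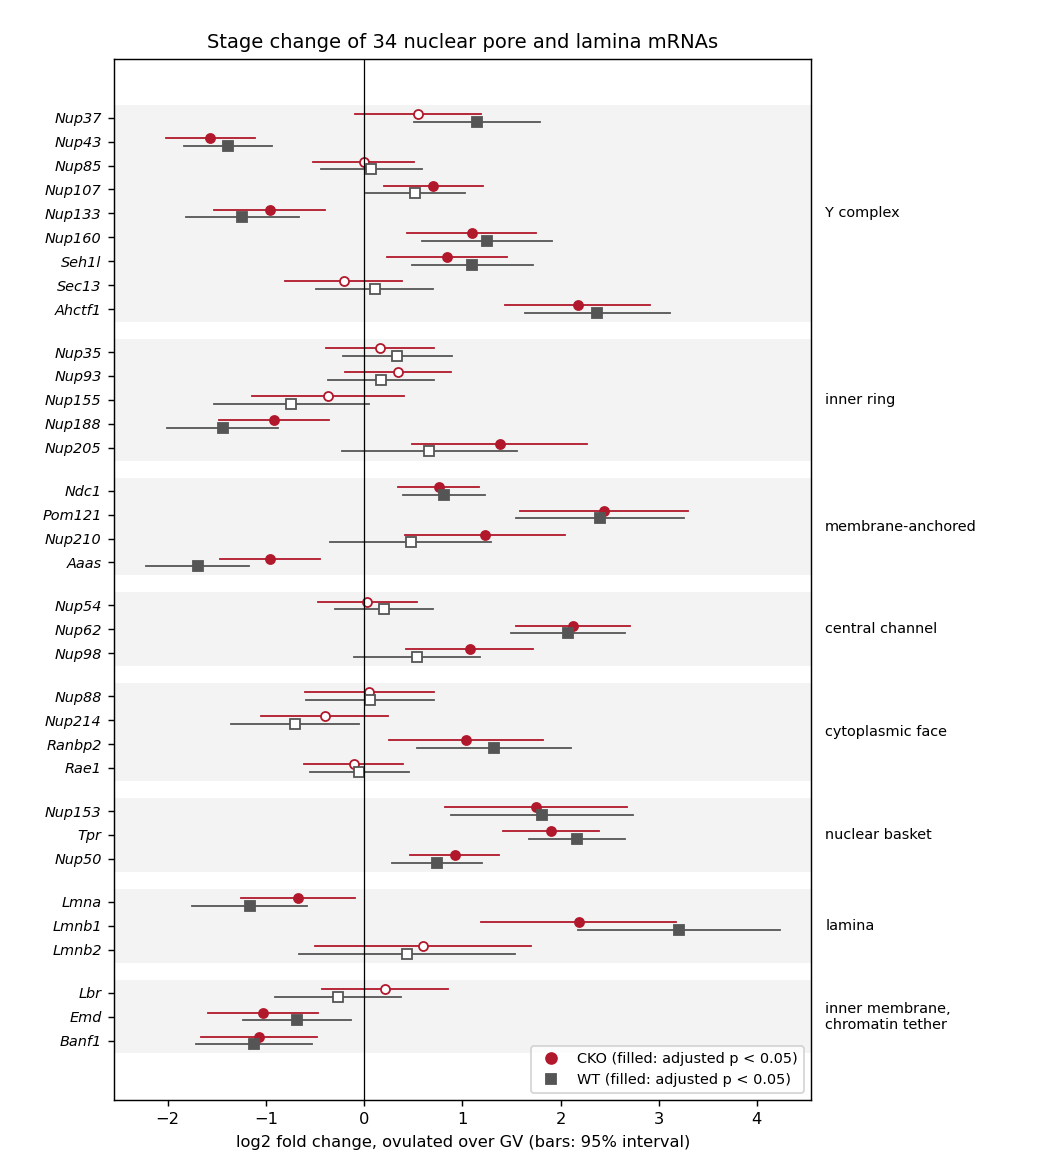
Log2 fold change of each member, ovulated over GV, with its 95% interval, for CKO (red circles) and WT oocytes (grey squares); filled symbols passed an adjusted p of 0.05. Members are grouped by their place in the pore or envelope; the 3 basket genes lie to the right of 0 in both genotypes, and Emd and Banf1 to the left.

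The nuclear basket, the set of filaments on the nucleoplasmic face, was the structure in which every member rose. Tpr, which forms the basket filaments (chr1:150392802-150449935), had 160, 171 and 195 CPM in ovulated CKO, 227, 209 and 170 in ovulated WT, 57.9, 57.0, 35.6 and 37.6 in GV CKO, and 45.1, 45.2, 52.1 and 37.4 in GV WT. Each ovulated library was above each GV library. Its log2 fold change was 1.90 in CKO (SE 0.23, edgeR adjusted p = 1.19e-05) and 2.17 in WT (SE 0.23, adjusted p = 2.07e-06), the smallest p among the members in both genotypes. Nup153, which anchors the basket to the ring (chr13:46679902-46727849), had 174, 142 and 189 CPM in ovulated CKO, 162, 159 and 113 in ovulated WT, 89.6, 45.4, 45.1 and 19.9 in GV CKO, and 23.3, 48.9, 72.3 and 20.6 in GV WT. The ovulated libraries were again all higher, although the GV libraries differed up to 4.51-fold among replicates. Nup153 rose by 1.75 in CKO (SE 0.44, adjusted p = 0.00301) and 1.81 in WT (SE 0.44, adjusted p = 0.00191) on the log2 scale. Nup50, a mobile basket protein that helps release cargo from importins, rose by 0.92 in CKO and 0.74 in WT. The annotated transcripts of Tpr, Nup153 and Nup50 have 7430, 6109 and 4766 bases. Over all genes longer transcripts tended to rise, with Spearman's rho of 0.401 in CKO and 0.374 in WT. The part of length in the basket's rise was not tested.

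In the membrane ring, Pom121, a transmembrane nucleoporin that takes part in early pore assembly (chr5:135376140-135404841), showed the largest change of the pore genes. It had 88.7, 123 and 112 CPM in ovulated CKO, 107, 123 and 65.2 in ovulated WT, 35.2, 22.9, 12.9 and 8.28 in GV CKO, and 14.9, 20.6, 26.9 and 12.0 in GV WT. No GV library reached the lowest ovulated one. Pom121 rose by 2.45 in CKO (SE 0.41, adjusted p = 0.000123) and 2.40 in WT (SE 0.41, adjusted p = 9.09e-05) on the log2 scale. Its exons overlap those of Nsun5 on the other strand by 658 bases, and whether the counting used strand is not given in the sources used here. Ndc1, another membrane anchor, rose by 0.76 in CKO and 0.81 in WT, with the smallest standard errors of the set. Nup210 rose in CKO by 1.24 (adjusted p = 0.0121) and had a log2 fold change of 0.48 in WT that did not pass (adjusted p = 0.293). The difference between the genotypes did not pass either (0.76, SE 0.55, adjusted p = 0.757).

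Aaas, encoding ALADIN, which is held at the pore by NDC1, went the other way from its anchor. It had 55.5, 73.7 and 56.4 CPM in ovulated CKO, 48.7, 31.8 and 45.3 in ovulated WT, 92.3, 119, 123 and 148 in GV CKO, and 157, 130, 107 and 150 in GV WT. The stages did not overlap in either genotype. Aaas fell, with log2 fold changes of −0.96 in CKO (SE 0.24, adjusted p = 0.00299) and −1.70 in WT (SE 0.25, adjusted p = 2.56e-05), the largest fall in WT. The call in CKO was lost when libraries were scaled to total counts (−0.34, adjusted p = 0.303), and the one in WT was kept (−1.37, adjusted p = 0.000421).

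The Y complex, the outer scaffold, held 4 members that rose and 2 that fell in each genotype. Ahctf1, encoding ELYS, which brings the complex to chromatin when pores are rebuilt (chr1:179744904-179804015), had 115, 112 and 140 CPM in ovulated CKO and 120, 101 and 79.5 in ovulated WT. In GV oocytes it had 39.3, 27.5, 29.2 and 12.1 CPM in CKO and 14.6, 26.1, 25.0 and 11.6 in WT. All ovulated libraries lay above all GV libraries. Ahctf1 rose by 2.17 in CKO (SE 0.35, adjusted p = 9.23e-05) and 2.37 in WT (SE 0.35, adjusted p = 2.75e-05). Its exons overlap those of Kif28 by 155 bases and those of Gm10518 by 305. Nup160 rose by 1.09 in CKO and 1.25 in WT, and Seh1l by 0.84 in CKO and 1.10 in WT. The WT stages overlapped for Seh1l, which had 216, 73.2 and 176 CPM in ovulated WT, against 66.4 to 80.4 in GV WT. Without ovulated CKO replicate 3 the calls of Seh1l and Nup107 in CKO were lost.

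Nup43 and Nup133, which sit in the same Y-shaped assembly, fell. Nup43, a propeller protein of the short arm (chr10:7667504-7678886), had 59.1, 44.4 and 43.4 CPM in ovulated CKO, 54.0, 41.2 and 58.7 in ovulated WT, 137, 153, 157 and 134 in GV CKO, and 131, 147, 127 and 133 in GV WT. The groups of each stage were tight and far apart. It fell, with log2 fold changes of −1.57 in CKO (SE 0.21, adjusted p = 2.64e-05) and −1.39 in WT (SE 0.21, adjusted p = 3.75e-05), and was the only member still lower in CKO under total counts. Nup133, a stalk protein, had 13.9, 17.6 and 9.29 CPM in ovulated CKO, 10.6, 9.62 and 16.6 in ovulated WT, 22.8, 26.3, 30.6 and 26.2 in GV CKO, and 29.9, 32.2, 28.1 and 25.6 in GV WT. It fell, with log2 fold changes of −0.96 in CKO (adjusted p = 0.00618) and −1.24 in WT (adjusted p = 0.000848), and under total counts the call was lost in CKO. Nup37 passed in WT (1.15, adjusted p = 0.00337) and not in CKO (0.55, adjusted p = 0.132), while the difference between the genotypes did not pass (−0.60, SE 0.43, adjusted p = 0.753). Nup107, the partner of Nup133 in the stalk, rose in CKO (0.71, adjusted p = 0.0194) and had a log2 fold change of 0.52 in WT (adjusted p = 0.0673). Nup85 and Sec13 did not pass in either genotype, with log2 fold changes between −0.21 and 0.11.

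The channel and the cytoplasmic face held mostly rises or values that did not pass. Nup62, the FG nucleoporin of the central channel (chr7:44816088-44831836), had 218, 290 and 272 CPM in ovulated CKO, 275, 263 and 178 in ovulated WT, 85.5, 52.0, 36.5 and 64.7 in GV CKO, and 53.8, 61.3, 46.2 and 65.1 in GV WT. Each ovulated library exceeded the highest GV library. Nup62 rose by 2.12 in CKO (SE 0.27, adjusted p = 1.87e-05) and 2.08 in WT (SE 0.27, adjusted p = 1.06e-05) on the log2 scale, and its exons share 82 bases with Atf5 and 88 with Il4i1. Nup98, which lines the channel and also binds mRNA export factors, rose in CKO (1.07, adjusted p = 0.0068) and had a log2 fold change of 0.54 in WT (adjusted p = 0.133). Nup54, a partner of Nup62, had log2 fold changes of 0.03 in CKO and 0.20 in WT, with 95% intervals of −0.47 to 0.54 and −0.30 to 0.70. On the cytoplasmic filaments Ranbp2, the giant RAN-binding SUMO ligase, rose by 1.04 in CKO (adjusted p = 0.0246) and 1.32 in WT (adjusted p = 0.00542). The CKO call was lost without ovulated CKO replicate 1. Nup88, Nup214 and Rae1 did not pass, with values between −0.70 for Nup214 in WT and 0.06 for Nup88 in WT.

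In the inner ring 1 of 5 members passed in WT oocytes and 2 of 5 in CKO. The member that passed in WT was Nup188, a large scaffold protein (chr2:30286407-30344266). It had 25.8, 43.5 and 26.9 CPM in ovulated CKO, 31.5, 22.5 and 34.2 in ovulated WT, 59.0, 59.6, 55.0 and 69.1 in GV CKO, and 107, 60.4, 67.9 and 83.8 in GV WT. The stages did not overlap in either genotype. Nup188 fell, with log2 fold changes of −0.92 in CKO (SE 0.26, adjusted p = 0.00727) and −1.44 in WT (SE 0.27, adjusted p = 0.000221), and the CKO call was lost under total counts. Its paralogue Nup205 went the other way in CKO, where it rose by 1.38 (SE 0.42, adjusted p = 0.0107), and had a log2 fold change of 0.66 in WT (SE 0.42, adjusted p = 0.177). Nup35, Nup93 and Nup155 did not pass in either genotype.

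The lamins moved in opposite directions. Lmnb1, encoding lamin B1 on chromosome 18, had 7.50, 8.11 and 2.56 CPM in ovulated CKO, 9.03, 11.6 and 3.14 in ovulated WT, 1.99, 1.04, 1.43 and 0.828 in GV CKO, and 0.789, 0.681, 0.954 and 1.00 in GV WT. The third replicate was the lowest ovulated library in each genotype and was still above every GV library. Lmnb1 rose by 2.18 in CKO (SE 0.47, adjusted p = 0.000978) and by 3.20 in WT (SE 0.49, adjusted p = 3.58e-05), the largest fold change of the 34 in WT. Lmna, encoding lamins A and C (chr3:88481148-88509932), had 15.4, 16.4 and 7.71 CPM in ovulated CKO, 8.99, 13.2 and 12.9 in ovulated WT, 25.3, 19.4, 21.3 and 17.9 in GV CKO, and 27.5, 23.6, 25.4 and 28.5 in GV WT. The stages did not overlap, but in CKO the highest ovulated library came close to the lowest GV library. Lmna fell, with log2 fold changes of −0.67 in CKO (SE 0.28, adjusted p = 0.0473) and −1.17 in WT (SE 0.28, adjusted p = 0.0017). The CKO call held in 2 of 9 other settings, DESeq2 and limma-voom. It held in 1 of 7 fits that left out a library, the one without ovulated CKO replicate 2, and the log2 fold change in those 7 fits ran from −0.88 to −0.40. Under total counts neither genotype's call held, with −0.07 in CKO (adjusted p = 0.882) and −0.80 in WT (adjusted p = 0.0792). Lmnb2 did not pass, with log2 fold changes of 0.60 in CKO (95% interval −0.50 to 1.70) and 0.44 in WT (−0.66 to 1.53).

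Of the proteins that join the inner nuclear membrane to chromatin, Emd and Banf1 fell and Lbr did not pass. Banf1 (chr19:5364633-5366876) had 147, 125 and 91.0 CPM in ovulated CKO, 58.3, 122 and 90.9 in ovulated WT, 275, 279, 235 and 226 in GV CKO, and 153, 247, 163 and 226 in GV WT. No ovulated library reached the lowest GV library of its genotype. Banf1 fell, with log2 fold changes of −1.07 in CKO (SE 0.28, adjusted p = 0.00392) and −1.13 in WT (SE 0.28, adjusted p = 0.00223), calls that did not hold under total counts (−0.47 in CKO, adjusted p = 0.219, and −0.69 in WT, adjusted p = 0.065). Its exons overlap those of Eif1ad on the other strand by 428 bases. Emd, encoding the LEM-domain protein emerin on the X chromosome, had 7.87, 7.07 and 6.36 CPM in ovulated CKO, 6.30, 9.04 and 7.77 in ovulated WT, 10.4, 16.6, 13.3 and 17.7 in GV CKO, and 13.6, 11.1, 11.4 and 13.5 in GV WT. It fell, with log2 fold changes of −1.03 in CKO (adjusted p = 0.00354) and −0.69 in WT (adjusted p = 0.0304). The Emd call in WT was lost in 5 of 7 fits that left out a library, and under total counts neither held (−0.39 in CKO, adjusted p = 0.339, and −0.32 in WT, adjusted p = 0.426). Lbr, encoding the lamin B receptor, a membrane protein that binds heterochromatin and is also a sterol reductase (chr1:181815315-181842401), had log2 fold changes of 0.21 in CKO (95% interval −0.42 to 0.85) and −0.26 in WT (−0.91 to 0.38).

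**Figure D3:**
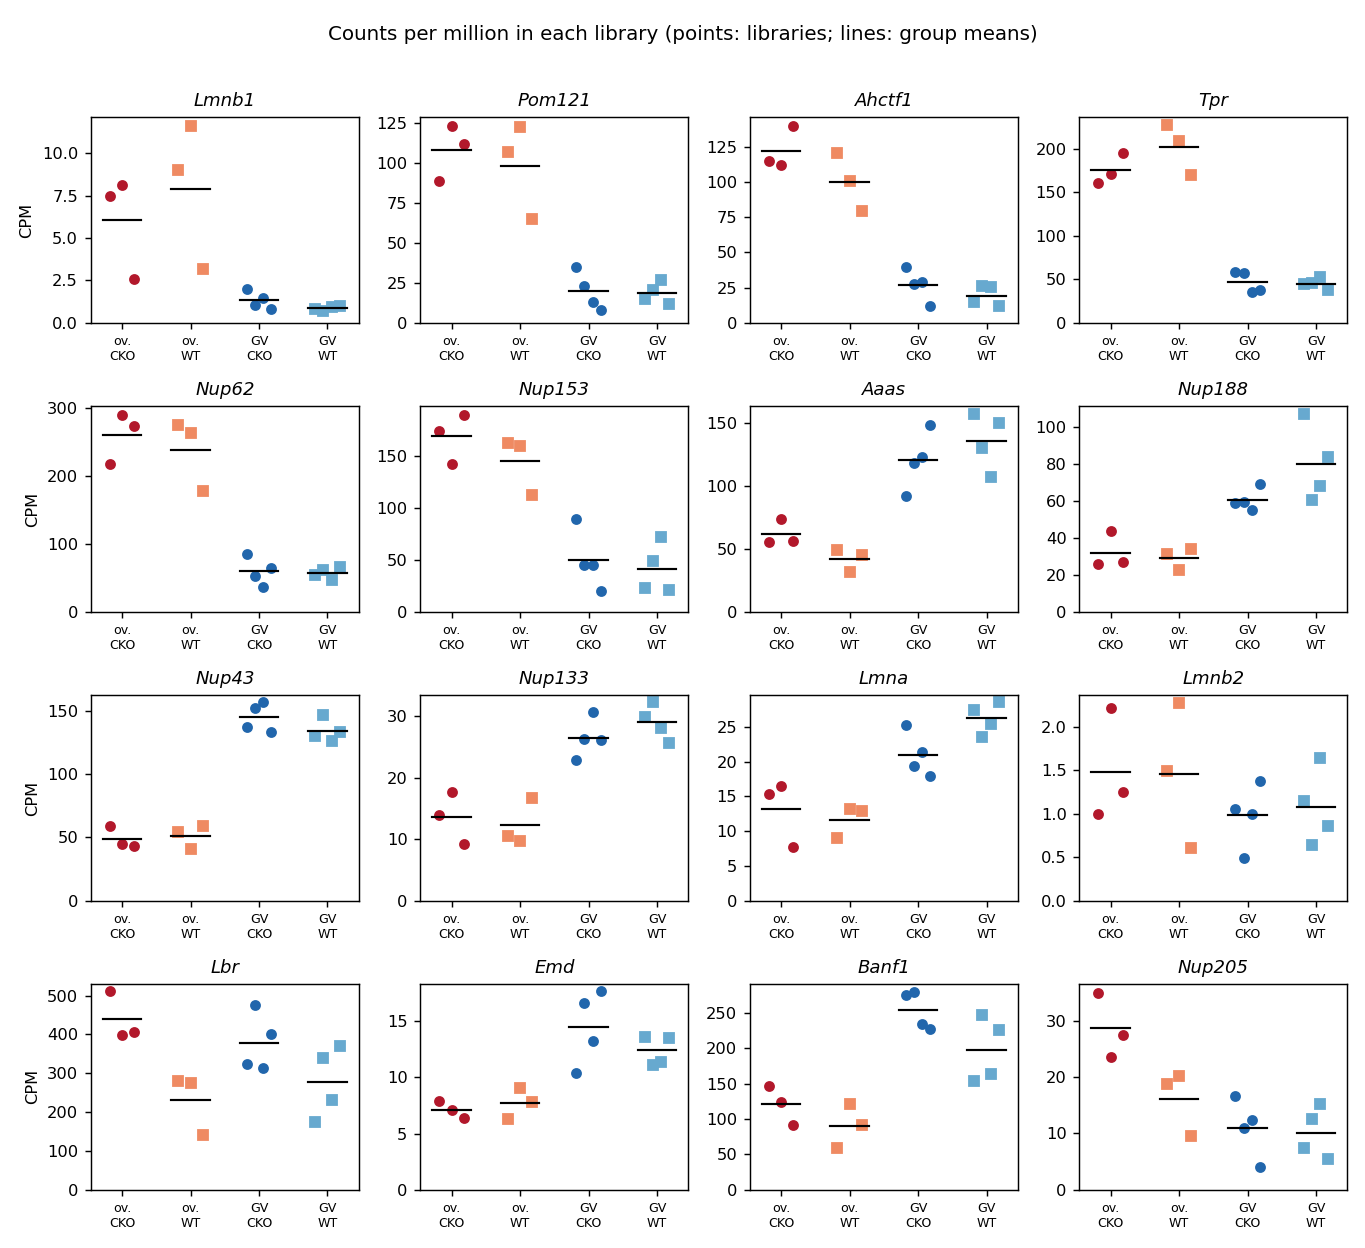
CPM of 16 members in each library (linear axes from 0), for ovulated CKO, ovulated WT, GV CKO and GV WT from left to right; points are libraries and lines group means. Ovulated and GV points separate for genes such as Tpr, Nup62 and Nup43, while CKO and WT points of a stage are intermixed for most genes and separate for Lbr, Nup205 and Aaas in ovulated oocytes.

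The direction of the stage change was mostly shared by both genotypes. The stage comparisons in CKO and in WT share no library, but they came from a single fit with common scaling and a common estimate of spread. The sign agreed for 31 of 34 members (91.18%) and for 89.73% of all genes tested. Both genotypes called 18 members in the same direction, which is 81.8% of those called in CKO and 94.7% of those called in WT. For all genes these shares were 89.1% and 78%. The members called in CKO alone were Nup107, Nup205, Nup210 and Nup98, the one called in WT alone was Nup37, and 11 were called in neither.

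Loss of Clpx was compared within each stage. In GV oocytes none of the 34 mRNAs passed between CKO and WT, and none had an unadjusted p under 0.05. DESeq2 and limma-voom also called 0 members. Over all 12265 genes tested 3 passed (0.0245%), 2 higher (0.0163%) and 1 lower (0.00815%) in CKO, shares at which a count of 0 among 34 says little about the members. The members' log2 fold changes ran from −0.40 for Nup188 to 0.62 for Lmnb1, with a median of 0.05 beside 0.02 for all genes. For 28 of the 34 the 95% interval lay within 2-fold in both directions. No member's CPM ranges were disjoint between CKO and WT, compared with 3.66% of all genes.

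The 3 GV values with the smallest p show how far the groups overlapped. Nup188 averaged 60.7 ± 6.00 CPM in GV CKO and 79.8 ± 20.7 in GV WT (SD, n = 4 each), and its log2 fold change was −0.40 (SE 0.20, edgeR adjusted p = 0.834). GV WT replicate 1, at 107 CPM, was the highest library, and without it the value was −0.21. Lmna averaged 20.998 ± 3.20 CPM in GV CKO and 26.3 ± 2.20 in GV WT, and its log2 fold change was −0.33 (SE 0.18, adjusted p = 0.834). Banf1 averaged 254 ± 27.2 CPM in GV CKO and 197 ± 46.1 in GV WT, and its log2 fold change was 0.36 (SE 0.19, adjusted p = 0.834). Each of these groups overlapped the other. Lbr and Lmnb1 had log2 fold changes of 0.44 (95% interval −0.11 to 1.00) and 0.62 (−0.14 to 1.38), Emd 0.22 (−0.27 to 0.72) and Lmnb2 −0.15 (−1.05 to 0.74).

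In ovulated oocytes no member passed either, and 1 of all 12044 genes tested did (0.0083%), which was Clpx. DESeq2 and limma-voom called 0 members, and 2 members, Lbr and Nup205, had an unadjusted p under 0.05. The members' median log2 fold change was 0.11, beside −0.0005 for all genes, in a range from −0.43 for Lmnb1 to 0.90 for Lbr. For 22 of 34 the 95% interval lay within 2-fold in both directions, so the ovulated comparison, with 3 libraries a group, leaves more room than the GV one. CPM ranges were disjoint for 4 members, Lbr, Nup205, Aaas and Ranbp2, each higher in CKO. That is 11.8% of the members, against 10.7% of all genes.

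Lbr had 511, 398 and 408 CPM in ovulated CKO, against 279, 275 and 141 in ovulated WT. Every CKO library was above every WT library, and the log2 fold change was 0.90 (SE 0.31, 95% interval 0.21 to 1.59, edgeR adjusted p = 0.572). Without ovulated WT replicate 3, the lowest library, it was 0.59. Nup205 had 35.0, 23.5 and 27.6 CPM in ovulated CKO, against 18.7, 20.1 and 9.53 in ovulated WT, and its log2 fold change was 0.81 (SE 0.35, 95% interval 0.03 to 1.59, adjusted p = 0.626). The same WT library was the lowest, and without it the value was 0.49. Aaas averaged 61.9 ± 10.3 CPM in ovulated CKO and 41.9 ± 8.90 in ovulated WT (SD, n = 3 each), and its log2 fold change was 0.55 (SE 0.28, adjusted p = 0.688). In the fits that left out a library these differences stayed positive and did not pass. The other envelope members had log2 fold changes of 0.14 for Lmna (95% interval −0.68 to 0.96), −0.43 for Lmnb1 (−1.64 to 0.79), 0.01 for Lmnb2 (−1.43 to 1.45), −0.14 for Emd (−0.92 to 0.64) and 0.39 for Banf1 (−0.30 to 1.08).

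**Figure D4:**
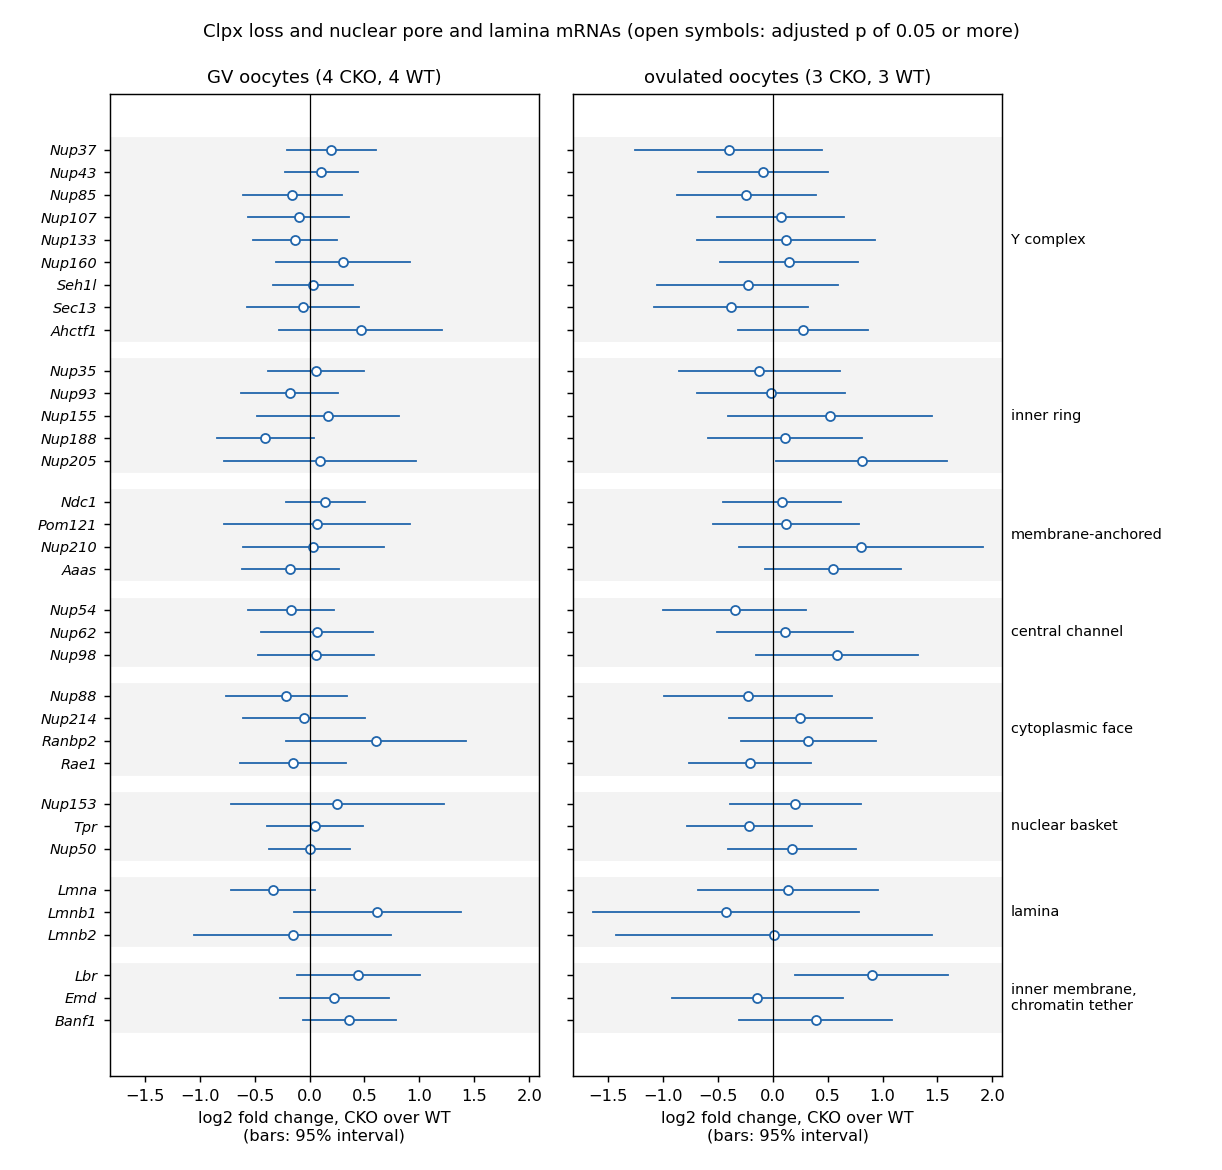
Log2 fold change of each member, CKO over WT, with its 95% interval, in GV oocytes (left) and ovulated oocytes (right). All symbols are open, since no member passed an adjusted p of 0.05; in ovulated oocytes the intervals of Lbr and Nup205 lie above 0.

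Whether the effect of Clpx loss differed between the stages was tested as an interaction over the 14 libraries. No member passed, and of all 13158 genes 1 did (0.0076%). DESeq2 and limma-voom called 0 members, and 1 member, Aaas, had an unadjusted p under 0.05. Its ovulated minus GV difference in the log2 fold change was 0.74 (SE 0.33, 95% interval 0.03 to 1.44, edgeR adjusted p = 0.526). For Lmnb1 the difference was −1.02 (SE 0.67, adjusted p = 0.715) and for Nup188 0.52 (SE 0.37, adjusted p = 0.741). The members' median was 0.02, beside 0.004 for all genes. For 13 of the 34 the 95% interval of this difference lay within 2-fold in both directions. For the rest, larger differences between the stage changes of CKO and WT stay within the interval. Ovulated CKO replicate 3 weighed on the counts of all genes: without it 201 genes passed between CKO and WT in ovulated oocytes and 498 in the interaction, with 0 members among them in either.

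The median level of the list's long transcripts differed between libraries of 1 group. Of the members 13 have annotated transcripts of at least 5000 bases, namely Ranbp2, Nup153, Ahctf1, Nup210, Nup205, Nup133, Nup160, Nup188, Nup214, Pom121, Tpr, Nup155 and Nup98. Their median deviation from the mean of the stage was 0.558, 0.199, 0.179 and −0.602 log2 units in the GV CKO libraries, and −0.328, 0.201, 0.335 and −0.378 in GV WT. GV CKO replicate 1 and GV WT replicate 3 were high, and GV CKO replicate 4 and GV WT replicates 1 and 4 were low. Not every long member followed this median, as Nup188 was highest of its group in GV WT replicate 1 and in GV CKO replicate 4. In the GV libraries the median of the 2484 tested genes with transcripts of that length moved the same way as that of the long members, by less. It ran from 0.248 in GV CKO replicate 1 to −0.282 in GV CKO replicate 4. In ovulated oocytes the long members' medians were 0.141, 0.170 and 0.0909 in CKO, against 0.0706, −0.117 and −0.456 in WT. The medians of all long genes there were −0.00914, 0.018 and 0.0492 in CKO, against 0.0613, 0.0379 and −0.129 in WT. The signs of these medians differed in ovulated CKO replicate 1 and ovulated WT replicate 2. WT replicate 3 stood lowest in both. The median of the other 21 members stayed between −0.265 and 0.209 in all 14 libraries, while single members could deviate more. Nup153 and Pom121 showed the widest spread, with the highest GV CKO library 4.51 and 4.25 times the lowest.

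The long transcripts held 9 of the 15 rises between stages in CKO and 6 of the 12 in WT. Of the 13 long members 9 rose and 2 fell in CKO, and 6 rose and 2 fell in WT. Of the 21 shorter ones 6 rose and 5 fell in CKO, and the same numbers did in WT. The difference between long and shorter members was not tested. The share of all genes of that length that rose or fell was not counted, so these numbers cannot be called particular to the members. Across the 34 members, which share the libraries, Spearman's rho between transcript length and stage change was 0.49 in CKO and 0.336 in WT. Over 12700 genes it was 0.401 and 0.374, so the relation was not limited to pore genes. Its part in the members' stage changes was not tested.

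**Figure D5:**
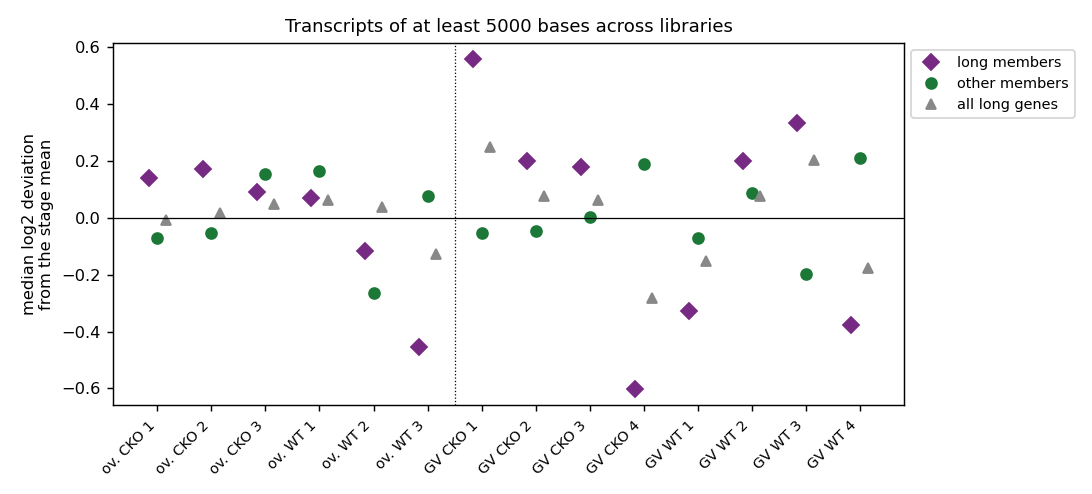
Median log2 deviation from the mean of the stage in each library, for the 13 members with transcripts of at least 5000 bases (diamonds), the other 21 members (circles) and all 2484 tested genes with transcripts of that length (triangles); the dotted line divides ovulated from GV libraries. The median of the long members ranges from −0.602 in GV CKO replicate 4 to 0.558 in GV CKO replicate 1.

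Genes that work with the pore were set beside the members. Of 32 nuclear transport factors 9 rose and 9 fell in each genotype, 28.1% each way, which is near the shares of all genes given above. The transport factors with the smallest p in WT were Nxf1, the main receptor for mRNA export, and the importin alpha genes Kpna2 and Kpna7. Nxf1 averaged 16.8 ± 9.20 CPM in ovulated CKO, 8.90 ± 3.06 in ovulated WT (SD, n = 3 each), 170 ± 46.0 in GV CKO and 163 ± 20.2 in GV WT (SD, n = 4 each). It fell, with log2 fold changes of −3.33 in CKO and −4.19 in WT. Kpna2 fell, with log2 fold changes of −2.81 in CKO and −4.26 in WT, and Kpna7 −2.06 in CKO and −2.38 in WT.

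Among 7 tested pore-associated genes outside the list, 3 rose and 1 fell in CKO, and 3 rose and 3 fell in WT. The mRNA export helicases Ddx19b and Ddx19a rose, by 1.36 and 0.76 in CKO and by 1.74 and 1.13 in WT. Nup210l, a paralogue of Nup210, averaged 0.353 ± 0.143 CPM in ovulated CKO, 0.0599 ± 0.0763 in ovulated WT (SD, n = 3 each), 0.490 ± 0.242 in GV CKO and 0.525 ± 0.0454 in GV WT (SD, n = 4 each). Its log2 fold change was −0.49 in CKO, which did not pass (edgeR adjusted p = 0.563), and −2.98 in WT (adjusted p = 0.00452). The difference between genotypes did not pass (2.49, SE 1.05, adjusted p = 0.492). Of 23 tested genes of the nuclear envelope beyond the list, 9 rose and 4 fell in CKO, and 9 rose and 6 fell in WT. Rce1, a protease that trims CAAX proteins including B-type lamins, fell, with log2 fold changes of −2.79 in CKO and −3.43 in WT. Tor1aip1, encoding the lamina-associated protein LAP1, rose by 1.19 in CKO and 1.64 in WT, and Syne2, encoding the linker nesprin-2, by 1.93 in CKO and 2.04 in WT. No gene of these lists passed between CKO and WT at either stage or in the interaction by edgeR.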

How the data were processed

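Per the labels' protocols, oocytes in lysis buffer were processed with SMART-Seq2. The authors deposited a table of expected counts and a table of FPKM values per stage, with 1 column per library. The deposited expected counts include fractional values, which marks them as estimates, and their totals differ between libraries. The deposited FPKM values carry the authors' own scaling to gene length and library size, made within each table. The build is mm10, per the submitters' processing notes. The aligner, counting tool, annotation and strand setting are not given in the sources used here.

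Expected counts were rounded and tested in R 4.3.3 by the robust quasi-likelihood method of edgeR 4.0.16, after filterByExpr (minimum count 10) and TMM scaling, with Benjamini-Hochberg adjustment over all genes tested. Genotypes were compared within each stage, and stage changes and the interaction in a fit of 14 libraries with 4 groups, on genes listed at both stages. CPM values are counts per 1e+06 of the library size after TMM scaling over the 14 libraries. Intervals are 95% intervals of that fit. The scripts were tested on simulated counts.

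Alternatives were DESeq2 1.42.0, limma-voom (limma 3.58.1), other scalings, no filter on low counts, a replicate block, limma on log2(FPKM + 1) and log2(FPKM + 0.1) for genes with a mean of at least 0.5 FPKM, other sets of libraries in the fit, and leaving out each library. The 18 pairs of libraries within groups each differed by more than counting noise, at a chi-square over its degrees of freedom of 40.5 or more. The labels do not say whether libraries with the same replicate number were paired, and the main test did not pair them. The members, the other gene lists and the rule for named genes were chosen with earlier results of these data known. The rule gave in full up to 5 members per direction with the largest stage change and at least 10 CPM, the 3 with the smallest p where none passed, the members of highest and lowest FPKM, and the lamins and chromatin tethers. Named from the other lists were up to 3 genes with the smallest p in the WT stage comparison.

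Gene positions are from RefSeq (GRCm38.p6), and 3′ ends, transcript lengths and exon overlaps from GENCODE M21 on the same build. Exon overlaps not given above were those of Tpr with Odr4 (176 bases) and Prg4 (204), and Nup188 with Gm14471 (492) and Gm28038 (284). Nup133 overlapped Gm29773 (461) and Gm45890 (268), Nup214 Gm13609 (200) and Gm16534 (237), and Emd Gm14686 (343). Nup88 overlapped Rabep1 (34) and Seh1l 4930549G23Rik (126). Gm28038 and Gm14686 lie on the member's own strand. Precision is set by 3 or 4 libraries per group, and PCR duplicates cannot be told from separate molecules here. No library was left out.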

Additional observations from a re-analysis of the deposited data

How the results depend on the processing

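Under every alternative run, 0 members passed between CKO and WT at either stage or in the interaction, and 19 to 23 passed between stages in CKO and 18 to 21 in WT. All 12 rises in WT and 12 of 15 in CKO were called in every alternative, against 1 of 7 falls in CKO and 4 of 7 in WT. Counts over all genes moved more. Between CKO and WT in GV oocytes DESeq2 called 39 genes, and leaving out a library gave 3 to 6. In ovulated oocytes DESeq2 called 101, a fit of all 14 libraries 64, and leaving out a library 1 to 201. In the interaction DESeq2 called 65, and limma-voom, the replicate block and limma on either FPKM scale 0, with 0 to 498 when a library was left out. The replicate block left 21 members called between stages in CKO and 20 in WT. Whether same-number libraries were paired is not given. Same-number correlations were mixed, from −0.309 to 0.672 in GV oocytes and −0.311 to 0.505 in ovulated. Those of different numbers ran from −0.69 to 0.389 in GV oocytes and −0.484 to 0.508 in ovulated.

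Members' medians under total counts, log2(FPKM + 1) and log2(FPKM + 0.1) were 1.01, 0.8871 and 0.8969 for stages in CKO, 0.7097, 0.5701 and 0.5731 for stages in WT, −0.1047, −0.1438 and −0.1562 for CKO over WT in GV oocytes, and 0.2516, 0.291 and 0.2967 for the interaction. With a library left out they ran from 0.2443 (without ovulated CKO replicate 3) to 0.5714 for CKO stages, from 0.116 (without ovulated WT replicate 1) to 0.4413 for WT stages, −0.0369 to 0.1109 in GV oocytes, −0.0854 to 0.1551 for the interaction and −0.0049 to 0.1528 in ovulated oocytes. Of 761 alternative values for single genes, 706 kept direction and side of the threshold, 36 lost a call, 3 gained one and 16 changed sign, none of them of a called value. With a library left out, Lmnb2 ran from −0.367 to 0.14 for CKO over WT in GV oocytes, from −0.409 to 0.501 for CKO over WT in ovulated oocytes and from −0.0983 to 0.814 between WT stages. For CKO over WT in ovulated oocytes, Emd ran from −0.309 to 0.00125 and Lmna from −0.0574 to 0.346, and Lbr between WT stages ran from −0.448 to 0.00572. Lmnb2 in ovulated CKO over WT was −0.0133 with DESeq2 or its size factors. Lbr between WT stages was 0.151 under total counts and 0.072 and 0.0721 on the FPKM scales. The cause was not tested. Fewer reads stood behind Lmnb1 and Lmnb2 than behind most members, and their replicates also spread widely, with coefficients of variation up to 54.65% and 57.23%.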
